A study of Mus musculus with 7 samples.

Results

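The genes of the cone light response were examined for histone H3 lactylated at lysine 18 (H3K18La) in the maturing mouse retina. The set was chosen by name and held 10 genes: the opsins Opn1sw and Opn1mw, the arrestin Arr3, the transducin subunits Gnat2, Gnb3 and Gngt2, the phosphodiesterase subunits Pde6c and Pde6h, and the channel subunits Cnga3 and Cngb3. Every H3K18La peak that the deposited annotation gave to 1 of these symbols was taken, which came to 31 of 108253 peaks. Of the 31 peaks, 13 were annotated as promoter peaks, and 9 of the 10 genes had at least 1 of them. Pde6h had none under that annotation. For each gene, the promoter peak nearest its start site is described first and the other peaks after it.

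Cones are the photoreceptors of daylight and colour vision, and they are a small minority beside rods in the mouse retina. Light isomerizes the chromophore of a cone opsin, the opsin activates the cone transducin, and transducin relieves the cone phosphodiesterase of its inhibitory subunit. Cyclic GMP then falls, the cyclic nucleotide-gated channel closes and the cell hyperpolarizes, until cone arrestin and other proteins end the response. Rods use a parallel set of proteins from paralogous genes. Mouse cones can carry the short-wavelength opsin of Opn1sw, the middle-wavelength opsin of Opn1mw, or both, and the short-wavelength opsin appears earlier in development. H3K18La is a histone acylation derived from lactate and is found at active promoters.

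CUT&Tag was used, a method that tethers an enzyme to chromatin through an antibody, here one to H3K18La, so that sequenced fragments gather where the mark lies. The 7 libraries came from whole retinas of C57Bl/6J mice, dissociated with papain, with 2 libraries at postnatal day 4 (P4), 2 at P10 and 3 at P28. P4 precedes eye opening, at P10 photoreceptors are still extending their outer segments, and P28 retinas are mature. The labels name no treatment and no other genotype, and they put P28 replicate 1 alone in batch 2. Because whole retina was used, more cones with the mark and more mark per cone cannot be told apart, and neither can cones and any other cell type that carries the mark at the same gene.

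Levels are given as RPKM, the reads per kilobase of peak scaled to the authors' normalized library size. Reads in peaks ranged from 199970 to 8274373 per library, a range of 41.4 times, and the P10 libraries and P4 libraries were the shallow ones. The share of the normalized library size that lay in peaks was 16.3% to 17.6% at P4, 36.1% to 52.1% at P10 and 42.4% to 57.1% at P28. This share was lowest at P4, where most levels below were also lowest, so changes that turn under another scaling are given with it. In 17 of the 31 peaks both P4 libraries held 3 reads or fewer, in 13 both P10 libraries did, and 27 peaks held 20 or more reads over the 7 libraries. As a check of the tissue label, 3 of 4 rod markers had a promoter peak (Gnat1, Pde6b and Nrl), and their summed level was 5.07 to 5.34 RPKM at P4 and 34.0 to 53.6 RPKM at P28. Promoter peaks of none of the 3 microglial markers were found here. Of 3 pigment epithelium markers 1 had a promoter peak, Best1, at 1.24 to 1.42 RPKM at P4, 0 at P10 and 0.54 to 0.64 RPKM at P28. Markers of other cell types moved with age too. The 1 amacrine marker of 3 with a promoter peak, Slc6a9, was called higher at both later ages, with 1.14 to 1.5 RPKM at P4 and 10.9 to 16.6 RPKM at P28. Of 4 markers of progenitors and dividing cells 2 had a promoter peak and 1 was called higher at each later age, with sums of 1.62 to 2.24 RPKM at P4 and 15.3 to 17.5 RPKM at P28. All 3 Mueller glia markers had one and 1 was called higher at P28, with sums of 5.04 to 5.59 RPKM at P4 and 14.2 to 19.1 RPKM at P28. Ganglion cell, endothelial and lens markers, 2 of 3 each with a promoter peak, had no call, and the ganglion cell sum was 5.88 to 7.82 RPKM at P4 and 1.47 to 4.1 RPKM at P28. The part of these cell types in the changes at cone genes was not tested.

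Promoter sequence is shown for 4 members, both opsins with their different time courses and Arr3 and Gnat2, whose stretch before the start site lay wholly inside the H3K18La peak described below. The same held for 1 of the 2 Cnga3 windows, which is not printed. RefSeq promoter entries of GRCm38.p6 were present for 6 of the 10 genes, namely Opn1sw, Opn1mw, Arr3, Gnat2, Pde6h and Cnga3. Pde6c, Cngb3, Gnb3 and Gngt2 were not matched. Each line gives the 250 bases before the start site, 5′ to 3′ on the strand of the gene. Capitals mark matches, on either strand, to 4 short motifs: GGATTA, the core bound by CRX and OTX factors; AGGTCA, a nuclear receptor half-site; TGCTGA, an NRL half-site; and GGGCGG, the GC box of SP and KLF factors. The windows are chr6:29380514-29380763 on the minus strand for Opn1sw, chrX:74127216-74127465 on the plus strand for Opn1mw, chrX:100605247-100605496 on the plus strand for Arr3 and chr3:108092816-108093065 on the plus strand for Gnat2.
Opn1sw: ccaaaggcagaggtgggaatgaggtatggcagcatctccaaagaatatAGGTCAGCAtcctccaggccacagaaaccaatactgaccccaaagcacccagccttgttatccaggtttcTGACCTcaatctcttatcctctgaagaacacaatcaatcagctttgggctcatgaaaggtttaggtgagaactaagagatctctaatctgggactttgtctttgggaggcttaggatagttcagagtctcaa
Opn1mw: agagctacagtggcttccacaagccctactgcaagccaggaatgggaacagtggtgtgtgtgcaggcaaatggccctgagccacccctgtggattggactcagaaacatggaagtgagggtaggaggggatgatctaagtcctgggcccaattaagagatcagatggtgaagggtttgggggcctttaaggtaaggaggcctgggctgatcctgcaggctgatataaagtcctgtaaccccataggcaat
Arr3: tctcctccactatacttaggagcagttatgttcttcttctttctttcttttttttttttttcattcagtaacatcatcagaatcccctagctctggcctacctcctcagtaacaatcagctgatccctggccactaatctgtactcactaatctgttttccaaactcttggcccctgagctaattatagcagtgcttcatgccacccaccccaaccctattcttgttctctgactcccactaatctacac
Gnat2: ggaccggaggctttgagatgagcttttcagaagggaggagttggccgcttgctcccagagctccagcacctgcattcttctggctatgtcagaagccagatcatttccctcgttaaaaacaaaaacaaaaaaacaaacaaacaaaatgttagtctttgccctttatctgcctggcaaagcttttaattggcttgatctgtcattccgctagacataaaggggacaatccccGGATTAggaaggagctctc

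The Opn1sw window held AGGTCA on the strand of the gene, beginning 202 bases before the start, and again on the opposite strand at 132 bases. The first of these overlapped a TGCTGA match on the opposite strand that began 199 bases before the start. Gnat2 held GGATTA 19 bases before its start. The other 5 windows of member genes, including both X-linked ones printed here and the 2 alternative starts of Cnga3, held none of the 4 motifs in this exact spelling. Among all 32851 promoter windows of the same length, 6.25% held GGATTA, 14.0% AGGTCA, 16.1% TGCTGA and 32.7% GGGCGG. The windows of Opn1sw, Opn1mw and Arr3 contained 0 CpG dinucleotides, against a median of 6, and 7.87% of all windows contained none.

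The same low CpG content was seen over whole peaks. The promoter peaks of all 9 genes lay below the median of all gene promoter peaks in both GC content and CpG density. Their GC content ran from 38.8% in Cngb3 to 56.9% in Gnb3, with a median of 49.8% against 59.5% over 9956 protein-coding genes. Their CpG density ran from 1.64 per kilobase in Opn1mw to 20.7 in Pde6c, with a median of 15.3 against 59.9. The promoter peaks of 7 rod paralogs were similar in this respect, with medians of 50.5% GC and 11.7 CpG per kilobase. These are descriptions of sequence, with no test.

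Between P4 and P28, H3K18La rose at the promoters of Opn1mw, Arr3, Pde6c and Gnb3, 4 of the 9 genes, and fell at none. Between P4 and P10 it rose at Opn1sw and Gnb3, and fell at none. Calls are from limma on log2(RPKM + 1), fitted over all peaks and libraries, at a Benjamini-Hochberg adjusted p under 0.01. Over all 9956 protein-coding genes with a promoter peak, 33.6% were called for P28 against P4 and 12.4% for P10 against P4, so the counts of 4 and 2 of 9 stand against a widespread rise. By direction, P28 exceeded P4 in 33.4% of gene promoters by this call and fell short of it in 0.281%, and P10 exceeded P4 in 11.6% and fell short of it in 0.864%. Every P28 library lay above every P4 library in 8 of the 9 genes, against 79.8% of gene promoters, and below in 0, against 4.51%. Every P10 library lay above every P4 library in 6 of the 9, against 46.1%, and below in 0, against 8.96%. The P28 libraries lay above the P10 libraries in 4 of the 9, against 55.1%, and below them in 3, namely Opn1sw, Cngb3 and Gnb3, against 5.69%. The median change of the 9 promoter peaks was 1.72 on the log2 scale for P28 against P4, where the median over all gene promoters was 1.35, and 1.23 against 0.54 for P10 against P4. None of the 9 was called for P28 against P10, where 0% of gene promoters were called. An unadjusted p under 0.05 was found there in 6 of the 9, against 3935 of 9956 gene promoters. With voom on the recovered reads 4 of the 9 were called there, against 575 of 9956 gene promoters. Without P10 replicate 2, which leaves 1 library at P10, calls rose both among the 9 and over all gene promoters. The moderated F-test over the 3 ages called Opn1mw, Pde6c and Gnb3, 3 of 9, against 29.3% of gene promoters.

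These counts were sensitive to the libraries. Leaving out 1 library at a time gave 1 to 5 promoter calls for P28 against P4, with 1 call without P4 replicate 1, P28 replicate 2 or P28 replicate 3, and 2 without P4 replicate 2. Without P28 replicate 1, which leaves batch 1 alone, there were 2. For P10 against P4 it gave 3 calls without P10 replicate 1 and 1 call without any other library, the fit within batch 1 included. The F-test gave 1 call without any 1 of the P4 or P28 libraries, and 6 and 5 without P10 replicate 1 and 2. Over all 9956 gene promoters the calls moved with the library left out as well. For P28 against P4 they went from 3349 to 1753, 1312 and 1288 without P28 replicate 1, 2 and 3. For P10 against P4 they went from 1236 to 713, 483 and 650. Both counts also fell without a P4 library, which leaves 1 at that age. They rose without a P10 library, which leaves 1 at P10. Scaling to reads in peaks, which lowered the change of the median gene promoter from 1.35 to 0.29 for P28 against P4, left 0 of the 9 called. Relative to the median promoter, 5 of the 9 genes lay above it for P28 against P4 under the deposited scaling, under scaling to reads in peaks and under median centring, and 4 under quantile normalization.

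**Figure D1:**
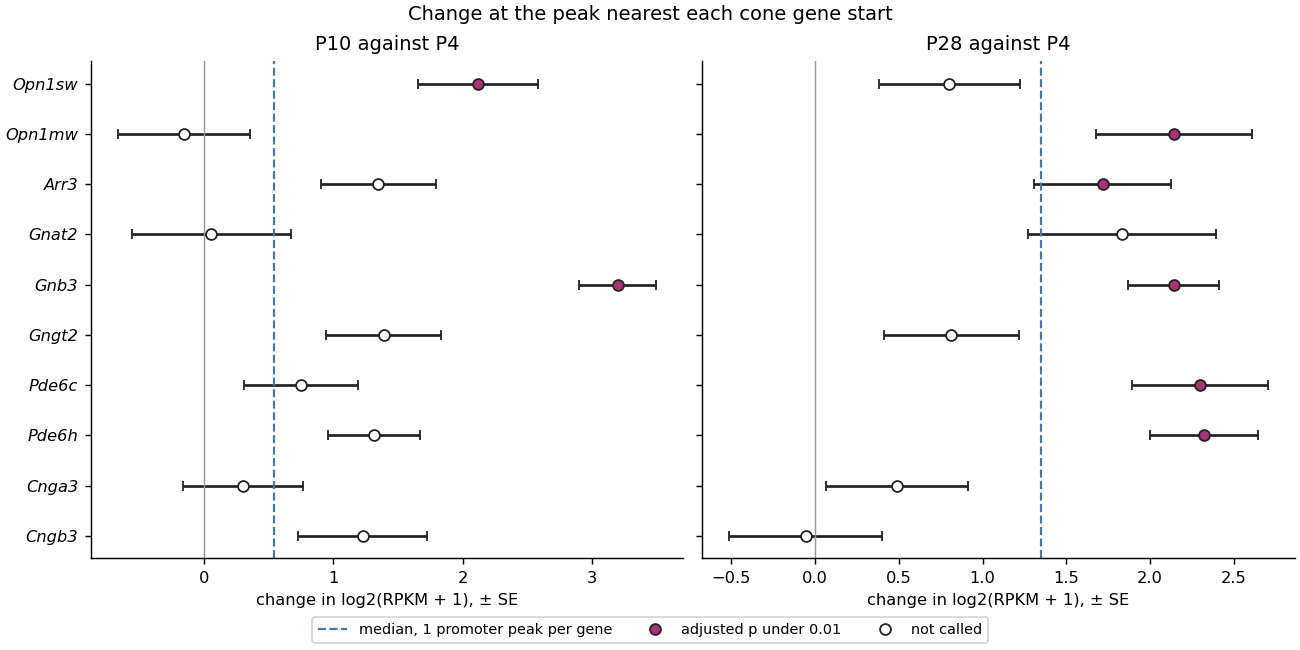
Change in log2(RPKM + 1) from P4 to P10 (left) and from P4 to P28 (right) at the promoter peak of each cone gene, and at the upstream peak of Pde6h, with standard errors from limma. Filled points passed an adjusted p of 0.01, and the dashed line is the median of 9956 gene promoters at 0.54 and 1.35. Opn1sw stood to the right of that line at P10 and to the left of it at P28, and Opn1mw the reverse.

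The opsin promoters had different time courses. The Opn1sw promoter peak (ENSMUSG00000058831, chr6:29380090-29381203, spanning the start of the gene) measured 1.63 and 0.536 RPKM at P4, 6.48 and 9.20 RPKM at P10, and 3.06, 2.92 and 1.71 RPKM at P28. Both P10 libraries lay above all P4 and P28 libraries, an order found in 4.6% of gene promoters. From P4 to P10 the level rose by 2.12 ± 0.46 (log2 change ± SE, adjusted p = 0.0068). From P4 to P28 the change was 0.80 ± 0.42 (adjusted p = 0.15), and from P10 to P28 it was -1.32 ± 0.42 (adjusted p = 0.064), which passed with voom on the recovered reads (adjusted p = 0.0094). Scaled to reads in peaks the change from P4 to P28 turned to -0.13. The reads behind it were 5 at P4, 17 at P10 and 77 at P28, and the pooled reads gave a P10 to P4 ratio of 7.23 with a 95% interval of 2.56 to 25.1. Such intervals, from the exact binomial, cover counting error only. The P10 call was lost without either P4 library, without P10 replicate 2 or without any 1 of the P28 libraries, with adjusted p from 0.0128 to 0.0436. The change lay between 1.73 and 2.51 over all fits that left out a library, and between 1.25 and 1.87 under the 3 other scalings. The call was also lost with a pseudocount of 0.1, scaled to reads in peaks, under quantile normalization and with library weights (adjusted p from 0.0153 to 0.0747). Averaging both promoter peaks of Opn1sw reduced the change to 0.62 (adjusted p = 0.36).

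The Opn1mw promoter peak (ENSMUSG00000031394, chrX:74126442-74127658, spanning the start) measured 0.373 and 0.490 RPKM at P4, 0 and 0.648 RPKM at P10, and 3.66, 5.56 and 7.24 RPKM at P28. The 3 P28 libraries lay above all 4 younger ones, and P4 and P10 overlapped. From P4 to P28 the level rose by 2.14 ± 0.47 (adjusted p = 0.0055), and from P10 to P28 the change was 2.30 ± 0.47 (adjusted p = 0.017), while from P4 to P10 it was -0.16 ± 0.51 (adjusted p = 0.85) and it was 0.31 under quantile normalization and 0.43 with voom. No more than 1 read was counted in any P4 or P10 library. The pooled P28 to P4 ratio was 13.3 with a 95% interval of 3.64 to 111, a wide range that stayed above 1. The P28 mean was 4.23 times the level that 3 reads per P4 library would give. The call was lost without either P4 library or any 1 of the P28 libraries, with adjusted p from 0.0123 to 0.0451. The change stayed between 1.95 and 2.36 on leaving out any library. The call was also lost scaled to reads in peaks (1.33, adjusted p = 0.026), under median centring (1.62, adjusted p = 0.0106) and with a pseudocount of 0.1 (adjusted p = 0.047). The change from P10 to P28 passed without P10 replicate 2 (adjusted p = 0.0028) and with voom on the recovered reads (adjusted p = 0.0019). Opn1mw and Arr3 are X-linked, and the median change over 313 X-linked gene promoters was 1.15 against 1.35 over 9643 autosomal ones.

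Within a library, the Opn1sw level minus the Opn1mw level in log2(RPKM + 1) was 0.94 and 0.04 at P4, 2.90 and 2.63 at P10, and -0.20, -0.74 and -1.61 at P28. Opn1sw was thus the higher of the pair in both P10 libraries and Opn1mw in all 3 P28 libraries. At P4 the counts were 4 reads against 1 in replicate 1 and 1 against 1 in replicate 2, so replicate 2 does not order the pair. At P10 they were 4 against 0 and 13 against 1, where 3 reads at Opn1mw would have read 4.45 and 1.94 RPKM. Opn1mw thus held 3 reads or fewer in every P4 and P10 library, and the sizes of the differences that use those ages are uncertain. The means at P10 and P28 differed by 3.62, and a two-sided exact permutation test gave p = 0.2, the smallest value that 3 against 2 libraries allow. P10 and P4 differed by 2.28 (exact p = 0.333, the smallest that 2 against 2 allow), and P28 and P4 by -1.34 (exact p = 0.2).

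**Figure D2:**
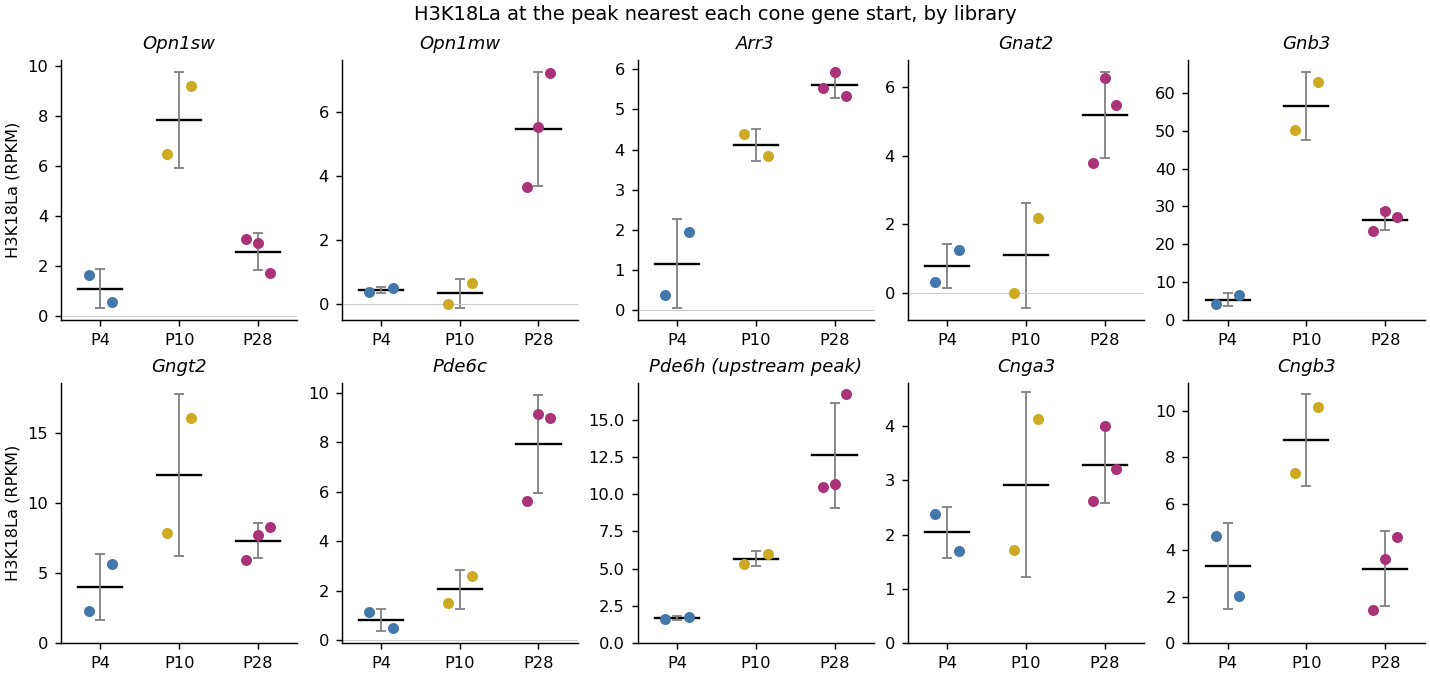
H3K18La in RPKM at the promoter peak of 9 cone genes and at the upstream peak of Pde6h, by age. Points are libraries, black lines are means and grey bars are SD (n = 2, 2 and 3), and each panel has its own axis. Opn1sw, Gnb3 and Cngb3 had both P10 libraries above all others, whereas Opn1mw, Arr3, Gnat2, Pde6c and Pde6h had their highest levels at P28.

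Arr3, which encodes cone arrestin, had 0.369 and 1.94 RPKM at P4, 4.4 and 3.84 RPKM at P10, and 5.54, 5.94 and 5.33 RPKM at P28 at its promoter peak (chrX:100604595-100605826). The 3 ages did not overlap. From P4 to P28 the level rose by 1.72 ± 0.41 (adjusted p = 0.0085), and the change to P10 was 1.35 ± 0.45 (adjusted p = 0.040). The call was lost without P4 replicate 1 or any 1 of the P28 libraries (adjusted p from 0.0307 to 0.0449). It was also lost scaled to reads in peaks (0.75, adjusted p = 0.22), under median centring (adjusted p = 0.033), under quantile normalization (1.31, adjusted p = 0.043) and with a pseudocount of 0.1 (adjusted p = 0.025). A second peak, intergenic and at -3297 bases from the start (chrX:100601719-100602200), measured 0 and 1.24 RPKM at P4, 3.75 and 6.54 RPKM at P10, and 5.44, 6.12 and 6.09 RPKM at P28. It rose by 2.20 ± 0.44 to P28 (adjusted p = 0.0036), with 1 read at P4 against 75 at P28 and a pooled ratio of 11.2 (95% interval 1.96 to 450). Its P28 mean was 1.8 times the level that 3 reads per P4 library would give. Its change to P10, 2.00 ± 0.48, was just outside the threshold (adjusted p = 0.0104) and inside it without P10 replicate 1 (adjusted p = 0.0055), with the filter on low values, under median centring and with voom (adjusted p from 0.0066 to 0.00997 over these 3). Its P28 call was lost without the same 4 libraries (adjusted p from 0.0170 to 0.0307), scaled to reads in peaks (1.47, adjusted p = 0.046) and with a pseudocount of 0.1 (adjusted p = 0.026).

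Among the transducin genes, Gnb3 rose by both later ages, and Gnat2 and Gngt2 were not called. Gnb3, the beta subunit of cone transducin, which ON bipolar cells also use, had a single peak over its start sites (chr6:124839144-124841484). It measured 4.08 and 6.63 RPKM at P4, 50.1 and 63.0 RPKM at P10, and 23.4, 28.9 and 27.3 RPKM at P28. No 2 ages overlapped, and P10 was the highest. From P4 to P10 the level rose by 3.20 ± 0.30 (adjusted p = 0.00039), and from P4 to P28 by 2.14 ± 0.27 (adjusted p = 0.00040). From P10 to P28 the change was -1.06 ± 0.27 (adjusted p = 0.034), and it passed under median centring (adjusted p = 0.0046) and under voom on the recovered reads (adjusted p = 0.00011). The peak held 47 reads at P4, 252 at P10 and 1678 at P28, the most reads of the 31 peaks, and its pooled P10 to P4 ratio was 11.4 (95% interval 8.33 to 15.9). Both rises held on leaving out any 1 library. The rise to P28 was lost when scaled to reads in peaks (0.74, adjusted p = 0.019), and both were lost under quantile normalization (0.54, adjusted p = 0.087, and 1.25, adjusted p = 0.0105).

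Gnat2 encodes the cone transducin alpha subunit. Its promoter peak (chr3:108092276-108093723) measured 0.314 and 1.24 RPKM at P4, 0 and 2.18 RPKM at P10, and 3.80, 6.28 and 5.49 RPKM at P28. All P28 libraries lay above all younger ones, but the change of 1.83 ± 0.56 from P4 was not called (adjusted p = 0.026). It passed without P10 replicate 1 (adjusted p = 0.0017) or P10 replicate 2 (adjusted p = 0.0019), with library weights (adjusted p = 0.00056) and with voom on the recovered reads (adjusted p = 2.4e-05). From P10 to P28 the change was 1.77 ± 0.56 (adjusted p = 0.062). It was 2.61 without P10 replicate 2 and 0.94 without P10 replicate 1, fits that leave 1 library at P10. The pooled P28 to P4 ratio was 8.05 (95% interval 3.1 to 29.8). The P28 mean was 4.77 times the level that 3 reads per P4 library would give. An adjoining promoter peak (chr3:108093991-108095051) measured 3.43 and 0.562 RPKM at P4 and 4.45, 10.5 and 9.93 RPKM at P28, a change of 1.75 ± 0.55 (adjusted p = 0.029).

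Gngt2, the cone transducin gamma subunit, had 2.32 and 5.65 RPKM at P4, 7.89 and 16.1 RPKM at P10, and 5.93, 7.75 and 8.31 RPKM at P28 at its promoter peak (chr11:95842920-95844291). The P10 and P28 libraries lay above P4, and P10 overlapped P28. The changes were 1.39 ± 0.44 to P10 (adjusted p = 0.034) and 0.81 ± 0.41 to P28 (adjusted p = 0.13), and neither was called. The change to P28 was -0.49 when scaled to reads in peaks and -0.36 under quantile normalization. The change to P10 passed with voom on the recovered reads (1.80, adjusted p = 0.0081). It was 1.86 without P10 replicate 1, 0.92 without P10 replicate 2, 0.89 without P4 replicate 1 and 1.89 without P4 replicate 2. Each of these fits leaves 1 library at that age. The change to P10 also depended on the scaling. It fell to 0.24 scaled to reads in peaks (adjusted p = 0.64) and to 0.22 under quantile normalization (adjusted p = 0.74). Start sites of Abi3, on the opposite strand, lie 444 and 511 bases from this peak, so the signal could not be given to Gngt2 alone.

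The mark rose by P28 at both phosphodiesterase genes. Pde6c, the catalytic subunit of the cone enzyme, had 1.13 and 0.493 RPKM at P4, 1.49 and 2.61 RPKM at P10, and 5.64, 9.14 and 8.99 RPKM at P28 at its promoter peak (chr19:38132076-38133285). The 3 ages did not overlap. The rise to P28 was 2.30 ± 0.40 (adjusted p = 0.0019), and it was lost when scaled to reads in peaks (1.31, adjusted p = 0.021). The change to P10 was 0.75 ± 0.44 (adjusted p = 0.23), and -0.0035 scaled to reads in peaks. From P10 to P28 the change was 1.55 ± 0.40 (adjusted p = 0.036), and it passed without P10 replicate 2 (adjusted p = 0.0092). The pooled P28 to P4 ratio was 10.1 (95% interval 3.89 to 37.3). The P28 mean was 6.08 times the level that 3 reads per P4 library would give. A neighbouring peak in intron 1 of 21, 725 bases past the start (chr19:38133506-38134714), measured 0.376 and 0.494 RPKM at P4, 4.48 and 3.26 RPKM at P10, and 4.77, 8.03 and 7.71 RPKM at P28. It rose by 2.42 ± 0.38 to P28 (adjusted p = 0.0011). The change to P10 was 1.75 ± 0.42 and just missed the threshold (adjusted p = 0.0101), passing without P10 replicate 2 (adjusted p = 0.0077), with a pseudocount of 0.1, with the filter on low values and with voom (adjusted p from 0.0036 to 0.0092 over the last 3). Both P28 calls were lost without either P4 library, P28 replicate 2 or P28 replicate 3, with adjusted p from 0.0139 to 0.0235 at the promoter and from 0.0102 to 0.0144 in the intron.

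Pde6h encodes the inhibitory subunit of the cone enzyme. Its main peak (chr6:136952148-136953851) was annotated to intron 2 of 4 of a longer transcript, but it ends 672 bases before the nearest of the usual Pde6h start sites in GENCODE vM21, in the stretch upstream of them. It measured 1.60 and 1.75 RPKM at P4, 5.30 and 6.01 RPKM at P10, and 10.5, 10.7 and 16.7 RPKM at P28. The ages did not overlap, and the level rose by 2.32 ± 0.32 from P4 to P28 (adjusted p = 0.00063). By P10 the change was 1.31 ± 0.35 (adjusted p = 0.017). The pooled P28 to P4 ratio was 7.22 (95% interval 4.0 to 14.6). The call was lost without P4 replicate 1 (adjusted p = 0.0109) and under scaling to reads in peaks (1.12, adjusted p = 0.0104). Counting this peak as the promoter peak of Pde6h, a choice made after the values were seen, gave 5 of 10 genes called for P28 against P4.

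The channel genes had no promoter call. Cnga3, the main subunit of the cone channel, had 2.38 and 1.70 RPKM at P4, 1.72 and 4.13 RPKM at P10, and 2.62, 4.01 and 3.21 RPKM at P28 at its promoter peak (chr1:37218358-37220458). P28 lay above P4, and P10 overlapped both. The change to P28 was 0.49 ± 0.42 (adjusted p = 0.37) under the deposited scaling and was negative under the 3 other scalings, from -0.66 to -0.03. The 2 promoter peaks farther upstream (chr1:37212677-37213567 and chr1:37213959-37214728) changed by -1.01 ± 0.72 and 0.48 ± 0.54, and neither was called.

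Cngb3, the modulatory subunit of the channel, had 4.62 and 2.02 RPKM at P4, 7.34 and 10.1 RPKM at P10, and 1.42, 3.62 and 4.56 RPKM at P28 at its promoter peak (chr4:19280209-19281684). Both P10 libraries lay above all others, and P28 overlapped P4. The change was 1.23 ± 0.50 to P10 (adjusted p = 0.084) and -0.06 ± 0.46 from P4 to P28 (adjusted p = 0.93). Both depended on the scaling: scaled to reads in peaks they were 0.11 and -1.27 (adjusted p = 0.88 and 0.037), and under quantile normalization 0.21 and -1.09 (adjusted p = 0.79 and 0.0997). From P10 to P28 it was -1.28 ± 0.46 (adjusted p = 0.086), called under voom on the recovered reads (adjusted p = 0.0093). A peak in intron 2 of 17 (chr4:19283937-19284594) also had both P10 libraries above all others, with 4.14 and 3.63 RPKM at P4, 8.23 and 7.19 RPKM at P10, and 0.399, 2.24 and 2.36 RPKM at P28, where all libraries lay below P4. There the change from P10 to P28 was -1.81 ± 0.45 (adjusted p = 0.031).

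Levels were ordered differently at each age, comparing RPKM, which is per length, at the promoter peaks and at the upstream peak of Pde6h. At P4 the highest was Gnb3 at 5.35 ± 1.80 RPKM (mean ± SD, n = 2), followed by Gngt2 at 3.99 ± 2.36 and Cngb3 at 3.32 ± 1.84, and the lowest was Opn1mw at 0.432 ± 0.083. Every neighbour in that order overlapped the next. At P10 Gnb3 stood apart at 56.5 ± 9.08, above 99.97% of gene promoters, followed by Gngt2 at 11.99 ± 5.79, Cngb3 at 8.74 ± 1.99 and Opn1sw at 7.84 ± 1.92, and Opn1mw was again lowest at 0.324 ± 0.458. Gngt2 overlapped Cngb3 there, Cngb3 overlapped Opn1sw, and from Arr3 down every neighbour overlapped the next. Opn1mw held 1 read over both P10 libraries, so its last place is uncertain. At P28 Gnb3 was still highest at 26.5 ± 2.80 (n = 3), then Pde6h at 12.6 ± 3.54 and Pde6c at 7.92 ± 1.98, with no overlap between these neighbours. From Pde6c down, every neighbour overlapped the next, through Gngt2, Arr3, Opn1mw, Gnat2, Cnga3 and Cngb3 to Opn1sw at 2.56 ± 0.75.

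Over all 31 peaks, 7 were called higher and 1 lower for P28 against P4, which is 25.8%, where 23.1% of all peaks were called, 18.9% higher and 4.21% lower. For P10 against P4, 2 were called higher and 1 lower, where 18.7% of all peaks were called, 11.4% higher and 7.34% lower. No peak was called for P28 against P10, where 0.00185% of all peaks were called. An unadjusted p under 0.05 was found there in 14 of the 31, against 35202 of all 108253 peaks. With voom on the recovered reads 5 of the 31 were called, against 9183 of all peaks. Apart from the promoter peak nearest each start, 22 peaks remained, of which 3 were called higher for P28 against P4, those of Arr3, Pde6c and Pde6h described above. The F-test called 7 of the 31, against 24.6% of all peaks. Leaving out 1 library gave 1 to 10 calls for P28 against P4, with 1, 4, 4, 3 and 2 without P4 replicate 1, P4 replicate 2, P28 replicate 1, P28 replicate 2 and P28 replicate 3. For P10 against P4 it gave 1 without P28 replicate 1 and 2 without P28 replicate 2 or P28 replicate 3. For P28 against P10 it gave 0 without any 1 of these. Without either P4 library, which leaves 1 at that age, calls for P10 against P4 fell among the 31 peaks and over all peaks. Without P10 replicate 2, which leaves 1 library at P10, calls for P28 against P10 rose in both. The median change from P4 to P28 over the 31 peaks was 0.49, against 0.68 over all peaks.

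The 1 peak called lower lay in intron 10 of 17 of Cngb3 (chr4:19411401-19412081), 130551 bases past the start. It held 2 and 1 reads at P4, 0 and 0 at P10, and 0, 4 and 0 at P28, with changes of -0.92 ± 0.20 to P28 (adjusted p = 0.0055) and -1.07 ± 0.22 to P10 (adjusted p = 0.0053). The pooled P28 to P4 ratio of 0.20 had a 95% interval of 0.034 to 1.36, which includes 1, and both P4 and P10 were at or under 3 reads per library. The P28 call was lost on leaving out any 1 library except P28 replicate 2 (adjusted p from 0.0106 to 0.0426), and the P10 call without either P4 library, either P10 library or P28 replicate 1 (adjusted p from 0.0101 to 0.0325). A pseudocount of 0.1 and library weights also ended both calls, and the P10 call was lost under quantile normalization and with voom as well, where adjusted p reached 0.58. The peak in intron 4 of 5 of Opn1mw (chrX:74141849-74142335) held 0 reads in both P4 libraries and 5, 18 and 17 at P28, and its change of 2.14 ± 0.53 just missed the threshold (adjusted p = 0.011). Its P28 mean of 3.66 RPKM was 1.13 times the level that 3 reads per P4 library would give.

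Among the remaining peaks, that in intron 8 of 21 of Pde6c (chr19:38154879-38156518) measured 2.22 and 2.18 RPKM at P4, 1.10 and 3.36 RPKM at P10, and 4.48, 5.81 and 8.21 RPKM at P28. Its P28 libraries lay above all younger ones, and its change from P4 of 1.13 ± 0.43 was not called (adjusted p = 0.057). A second promoter peak of Opn1sw, at the start of a longer transcript (chr6:29388561-29389213), measured 2.09 and 2.74 RPKM at P4, 0 and 2.41 at P10, and 1.61, 1.69 and 3.97 at P28, and did not follow the order of the first. The intronic peak of Opn1sw (chr6:29386197-29386490) held 0 reads at P10, where 3 reads would have read 8.04 and 18.4 RPKM, above its levels of 1.55 to 2.72 RPKM at the other ages. Outside the promoters, the highest change that was not called was that of the Opn1mw intron, and the lowest was -1.20 ± 0.52 at a peak in the 5′ UTR class of Cnga3 (adjusted p = 0.084).

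**Figure D3:**
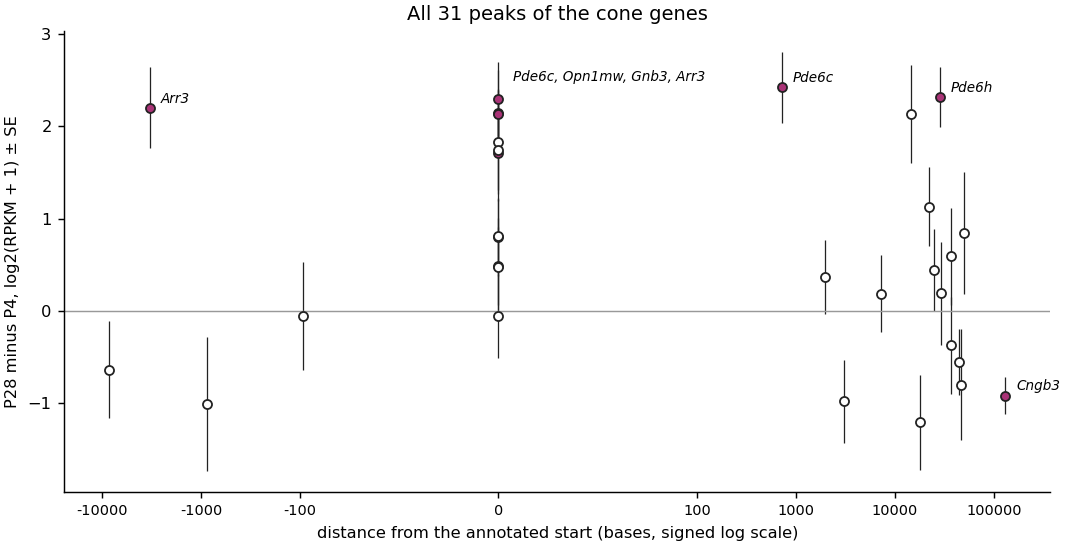
Change in log2(RPKM + 1) from P4 to P28, with standard error, at all 31 peaks against distance from the annotated start, in bases on a signed log axis. Filled points were called, and 4 of the 8 lie at distance 0. The 1 peak called lower is the Cngb3 intron peak at the far right, and the Pde6h peak is placed by the deposited annotation at 28316 bases.

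The rod paralogs give the comparison within the same libraries. Of 9 paralogs, 7 had a promoter peak (Sag and Cnga1 had none here), and all 7 were called higher both for P28 against P4 and for P10 against P4. Over all gene promoters these shares were 33.4% and 11.6%. The changes of the 7 paralogs to P28 ran from 2.24 to 3.21 with a median of 2.46. Those to P10 ran from 2.16 to 3.11 with a median of 2.56. Without P4 replicate 1 the calls fell to 4 and 1, without P4 replicate 2 to 4 and 3, and scaled to reads in peaks to 3 and 4, and under quantile normalization to 6 and 2, with all 7 changes positive in each of these. From P10 to P28 the rod changes stayed between -0.32 and 0.36, whereas the cone changes ran from -1.32 at Opn1sw to 2.30 at Opn1mw. No promoter peak of either set was called there. At P10 the 7 rod peaks held 35 to 83 reads each, against 17 at Opn1sw and 1 at Opn1mw. The width of the cone range is therefore uncertain.

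For 6 pairs with a promoter peak on both sides, the cone level minus the rod level was compared between P28 and P4. All 6 mean differences were lower at P28 than at P4, and in 3 of them the P28 libraries did not overlap the P4 libraries. Pde6c enters with both Pde6a and Pde6b, so the pairs are not independent, and no such share was taken over other gene pairs. Reads over both P4 libraries ran from 4 at Gnat2 and at Pde6c to 47 at Gnb3, so the sizes of these changes are uncertain. Cngb3 minus Cngb1 was 0.37 and 0.29 at P4 and -3.07, -2.67 and -2.59 at P28, a change of -3.11. Gngt2 minus Gngt1 changed by -1.49, from 0.81 and 1.75 at P4 to 0.02, -0.28 and -0.37 at P28. Gnat2 minus Gnat1 changed by -1.38, from -0.14 and 0.04 at P4 to -1.44, -1.37 and -1.47 at P28. Each of these 3 had an exact permutation p of 0.2, the smallest possible, and an adjusted p of 0.4 over the 6 pairs. Gnb3 minus Gnb1 changed by -0.36 (exact p = 0.4), and Pde6c minus Pde6b and Pde6c minus Pde6a by -0.16 and -0.13 (exact p = 0.4 and 0.8), with overlapping libraries, and both Pde6c changes turned positive with a pseudocount of 0.1, the second also without P4 replicate 1 (0.16). At P10 the Gnat2 and Pde6c differences were lower than at either other age, with Gnat2 minus Gnat1 at -4.35 and -1.85. The first of these rests on 0 reads at Gnat2, where 3 reads would have read 3.74 RPKM, so its size is uncertain.

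**Figure D4:**
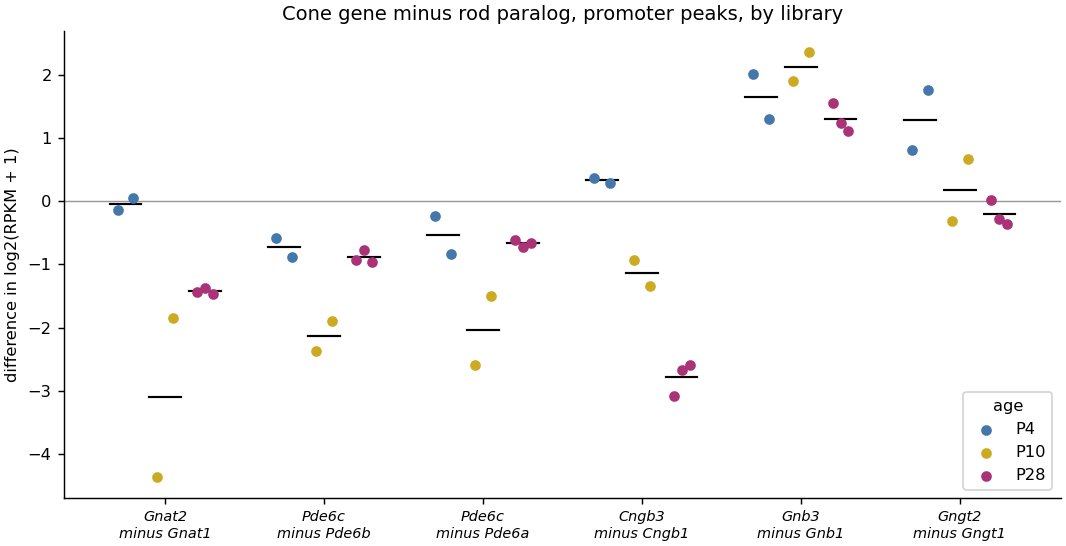
Difference in log2(RPKM + 1) between a cone gene and its rod paralog at their promoter peaks, 1 point per library, with black lines at the mean of each age. The Cngb3 pair falls at each age, from a mean of 0.33 at P4 to -1.13 at P10 and -2.78 at P28, while the Pde6c and Gnat2 pairs are lowest at P10.

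Genes that end the response and restore calcium and cyclic GMP are shared in part by cones and rods. Of 10 such genes, 9 had a promoter peak, and 8 were called higher for P28 against P4 and 5 higher and 1 lower for P10 against P4. Over all gene promoters, 33.4% were called higher for P28 against P4. For P10 against P4, 11.6% of them were called higher and 0.864% lower. The median change of the 9 genes to P28 was 3.08. Guca1b, a guanylate cyclase activator, rose by 4.24 ± 0.33 to P28 (adjusted p = 0.00011), the highest of the list, and Gnb5, a partner of the RGS9 complex that switches transducin off, rose by 3.83 ± 0.29 (adjusted p = 0.00011). Both genes held 1 read in each P4 library, so the sizes and order of these rises are uncertain. The 1 gene not called higher at P28 was Slc24a2, the cone sodium-calcium-potassium exchanger, with 2.98 and 2.93 RPKM at P4, 0 and 0 at P10, and 3.23, 3.02 and 4.39 at P28. Its change was 0.19 ± 0.41 to P28 (adjusted p = 0.73) and -1.98 ± 0.45 to P10 (adjusted p = 0.0083). Its P10 libraries held 0 reads where 3 reads would have read 1.94 and 4.44 RPKM, so a level like that at P4 was near what this depth could show.

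Among 12 transcription factors of photoreceptor fate, 11 had a promoter peak and 6 were called higher at P28 than at P4, namely Crx, Otx2, Nrl, Nr2e3, Neurod1 and Prdm1. For P10 against P4, 5 were called higher. Over all gene promoters, 33.4% were called higher for P28 against P4 and 11.6% for P10 against P4. Thrb, Rxrg, Onecut1 and Sall3, which take part in cone specification or opsin choice, were called in neither comparison, and Rorb just missed the threshold for P28 against P4 (1.81 ± 0.45, adjusted p = 0.0103). Thrb, the thyroid hormone receptor required for middle-wavelength opsin, changed by 1.32 ± 0.49 to P28 (adjusted p = 0.054) and 2.08 ± 0.54 to P10 (adjusted p = 0.014). Rxrg, its retinoid receptor partner, measured 3.80 and 3.99 RPKM at P4, 15.1 and 7.26 at P10, and 2.20, 4.32 and 3.76 at P28, with changes of 1.24 ± 0.43 to P10 (adjusted p = 0.049) and -1.41 ± 0.39 from P10 to P28 (adjusted p = 0.043). Both P10 libraries of Rxrg lay above all others, as they did at Nrl and Nr2e3 in this list, at the rod gene Pde6g, at Grk1 and in 4.6% of gene promoters. Sall3 and Onecut1 changed by 0.06 ± 0.59 and -1.14 ± 0.39 to P28 (adjusted p = 0.945 and 0.039).

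Likeness to the opsins was measured as the Euclidean distance between promoter peaks over the 7 libraries in log2(RPKM + 1), among 9776 gene promoters with 20 or more reads. The nearest to Opn1sw were Adam11 (distance 0.82), Adora2a (0.85) and Irf5 (0.96), whose mean levels at P4, P10 and P28 were, for Adam11, 0.939, 5.69 and 2.63 RPKM. The nearest to Opn1mw were Sfxn4 (0.45), Grn (0.55) and Gm49342 (0.55), and Sfxn4 averaged 0.558, 0.419 and 4.65 RPKM. No other cone gene was among the 3 nearest of either opsin.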

How the data were processed

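H3K18La CUT&Tag was measured in 7 libraries of mouse retina. The authors mapped reads to GRCm38 with nf-core/cutandrun and called peaks with MACS. Peaks beyond a q-value of 6 on the −log10 scale in at least 2 replicates were kept, merged over ages and annotated with ChIPseeker on Ensembl, with promoters set from 1000 bases before to 500 after a start. Reads per peak were counted with csaw and normalized on windows of 10000 bases. The authors deposited RPKM values, the unit used here. A deposited table of the authors' own age comparisons (fold changes, p-values and FDR) and the bare list of peak positions were not used.

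RPKM multiplied by width was a whole multiple of 1 step for 100% of peaks in each library (tolerance 0.01 reads), which gave the reads per peak. The floor used is 3 reads. Coordinates are 1-based on GRCm38, and 99.7% of annotated transcripts found in GENCODE vM21 had the same ends there. All peaks were fitted together with limma 3.58.1 in R 4.3.3, on log2(RPKM + 1) with age as factor, a variance trend and Benjamini-Hochberg adjustment over 108253 peaks. Changes on this scale understate those of low peaks. Differences within a library were compared between ages by exact permutation, two-sided. The scripts were tested on simulated data.

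The genes, lists and tests were chosen with earlier results of these data known. All 10 genes were described and all 31 peaks counted, with the promoter peak nearest the start as the main one (a tie went to the wider peak). The labels do not say whether replicates are separate animals or litters, so p-values measure the spread between these libraries. Alternatives were the pseudocount, a filter on low values, 3 other scalings, library weights, a replicate block, the mean over promoter peaks, each library left out, and voom on the recovered reads. The last was chosen after seeing the data.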

Additional observations from a re-analysis of the deposited data

How the results depend on the processing

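Calls depended on the scaling, the pseudocount and single libraries, and the cause was not tested. For P28 against P4 the 4 promoter calls became 2 with a pseudocount of 0.1, 0 scaled to reads in peaks, and 2 each under median centring and quantile normalization, and 8 of the 31 peaks became 4 with that pseudocount and 4 scaled to reads in peaks. For P10 against P4 the 2 promoter calls became 1 with the pseudocount, 1 scaled to reads in peaks, 0 under quantile normalization, 1 with library weights and 1 on averaging a gene's promoter peaks, and the 3 over all 31 peaks became 5 scaled to reads in peaks, 5 under median centring, 0 under quantile normalization and 1 with library weights. For P28 against P10 median centring gave 1 call instead of 0 in both sets, against 132 of 9956 gene promoters and 2344 of 108253 peaks. The 3 calls of the F-test became 1 with the pseudocount and 5 with library weights. Chosen after seeing the data, voom on the recovered reads gave 4 promoter calls and 5 of the 31 peaks for P28 against P10. It gave 5 of the 31 peaks for P10 against P4, and 7 promoter calls by the F-test. Voom called 575 of 9956 gene promoters and 9183 of 108253 peaks for P28 against P10, and 16616 peaks for P10 against P4. The 2 planned edgeR alternatives were not run, and voom on the recovered reads was run in their place. Leaving out 1 library gave 1 to 5, 1 to 3 and 0 to 3 promoter calls for P28 against P4, P10 against P4 and P28 against P10, 1 to 6 by the F-test, and 1 to 10, 1 to 4 and 0 to 7 over all 31 peaks.

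With the replicate number as a replicate block, promoter calls were 1 for P28 against P4, 1 for P10 against P4 and 1 by the F-test, and 4 of 31 peaks were called for P28 against P4 and 2 for P10 against P4. Deviations of same-numbered libraries correlated at 0.039 between P4 and P10 and at 0.047 and 0.023 between P10 and P28. Between P4 and P28 they correlated at 1.7e-05 and -0.001. P4 and P10 had 2 libraries each, with a median of 1 or 2 reads per peak. These values therefore cannot show whether the numbers pair the libraries.

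Signs turned as follows. Scaled to reads in peaks, P28 against P4 became -0.13 at Opn1sw, -0.66 at Cnga3 and -0.49 at Gngt2, and P10 against P4 became -0.62 at Gnat2, -0.0035 at Pde6c and -0.71 at Cnga3. Under median centring, Gnat2 turned to -0.19 for P10 against P4, Cnga3 to -0.034 for P28 against P4 and -0.089 for P28 against P10, and for the latter the upstream peak of Arr3 to -0.072 and the intron 10 peak of Cngb3 to -0.12. Under quantile normalization, Opn1mw turned to 0.31 and Cnga3 to -0.19 for P10 against P4, Cnga3 to -0.21 and Gngt2 to -0.36 for P28 against P4, and Cnga3 to -0.013 and the Cngb3 intron peak to -0.42 for P28 against P10. A pseudocount of 0.1 gave -0.64 at Gnat2 for P10 against P4, and 0.30 and 0.25 for Pde6c minus Pde6b and minus Pde6a. Library weights gave 0.14 at Cngb3 for P28 against P4. Averaging promoter peaks gave -0.015 and -0.36 at Cnga3 for P28 against P4 and against P10. With voom, P10 against P4 was 0.43 at Opn1mw, and P28 against P10 was -0.10 at the Arr3 upstream peak and -1.91 at the Cngb3 intron peak. Leaving out 1 library, ranges that crossed 0 were -0.52 to 0.20 at Opn1mw, -0.78 to 0.89 at Gnat2 and -0.15 to 0.76 at Cnga3 for P10 against P4, -0.27 to 0.64 at Cnga3 and -0.13 to 0.54 at the Arr3 upstream peak for P28 against P10, -0.50 to 0.39 at Cngb3 for P28 against P4, and -0.43 to 0.16 for Pde6c minus Pde6a.

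Over all gene promoters, 3349 calls for P28 against P4 became 1087 scaled to reads in peaks (745 higher, 342 lower), 2016 under quantile normalization (1684 higher, 332 lower), 1862 with the replicate block, 5754 with library weights and 5569 with voom. For P10 against P4, 1236 became 743 (245 higher, 498 lower), 350, 1008, 419 and 1528 in the same order. Depth limits the P4 and P10 values most: both P4 libraries held 3 reads or fewer in 17 of the 31 peaks.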
